A study of Caenorhabditis elegans with 30 samples.

Results

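Gene expression was compared between old *glp-1(-);hcf-1(-)* adults and old *glp-1(-)* adults, both kept on bacteria that carry the empty vector L4440 (EV) and both collected at day 12 of adulthood. The comparison took 4 of the 30 libraries of the series, 2 of each genotype, by their genotype, day and diet labels, and no measured value was used to choose them. Control worms carried *glp-1(e2141)*, and mutant worms carried *glp-1(e2141);hcf-1(pk924)*. *glp-1* encodes the Notch receptor that keeps germline stem cells dividing, and with this temperature-sensitive allele worms raised at the restrictive temperature make very few germ cells. The control is therefore itself a long-lived germline-less strain, *glp-1(e2141)* was present in every library, and no library came from worms with a normal germline. Each library was made from a pool of whole worms, labelled as somatic cells, and at day 12 the pool was what remained of a population. Each genotype was represented by 1 strain, so an effect of the allele and an effect of other differences between the strains cannot be told apart. The series also holds the same genotypes at days 1 and 3, a *glp-1(e2141);set-26(tm2467)* strain, and worms moved at day 1 to bacteria that express double-stranded RNA of *hda-1*, in 15 groups of 2 libraries.

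HCF-1 is the worm host cell factor, a conserved protein without DNA-binding activity of its own that sits in chromatin complexes with histone methyltransferases and deacetylases. In *C. elegans* it is known to bind the FOXO transcription factor DAF-16 and to limit its activity, and worms without HCF-1 live long and resist oxidative stress. SET-26, a protein with a SET domain and a PHD finger that binds histone H3 methylated at lysine 4, and the histone deacetylase HDA-1 are studied as its partners. In worms without a germline, somatic tissues, above all the intestine, take part in longevity through DAF-16, the NRF factor SKN-1 and lipid metabolism. By day 12 of adulthood such worms show changes of ageing in the cuticle, the gut, innate immunity and protein homeostasis.

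The 2 control libraries held 9093099 and 6045498 reads assigned to genes, and the 2 *glp-1(-);hcf-1(-)* libraries held 14983879 and 8974830, within a range of 6045498 to 17748121 over the series. Levels are given as CPM, the reads of a gene brought to a common library size with factors from the trimmed mean of M values, with replicate 1 before replicate 2. Differences are log2 fold changes with their standard errors (SE) from edgeR's quasi-likelihood F test, and a gene was called at a Benjamini-Hochberg adjusted p under 0.05. With 2 libraries per group, the p-values measure only a spread between libraries. That spread was estimated over the 6 day 12 EV libraries, with *glp-1(-);set-26(-)* included, and with information shared across genes. Whether groups overlap is given below as a description only, since most genes were named because they were called. Germline markers had a summed level of 8097 and 7962 CPM in control and 4454 and 3997 CPM in *glp-1(-);hcf-1(-)*, but nearly all of it came from *perm-2* and *perm-4*, which encode eggshell proteins. Without those 2 genes the other 28 germline markers summed to 109 and 144 CPM against 117 and 100 CPM, and 8 of the 30 had 3 reads or fewer in each of the 4 libraries. Of the 15 tested germline markers 1 was called higher and 3 lower, *perm-2* and *perm-4* among the lower ones. Sperm markers summed to at most 79.4 CPM and embryo markers to at most 140 CPM in any of the 4 libraries.

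The targeted gene followed the labels. *hcf-1* (WBGene00001827, chromosome IV, 7770770 to 7774275 in WBcel235) had 12.6 and 13.7 CPM in control and 1.82 and 2.45 CPM in *glp-1(-);hcf-1(-)*, with means of 13.2 ± 0.72 CPM and 2.13 ± 0.445 CPM (SD, n = 2). Each mutant library was below each control library, and the log2 fold change was -2.64 (SE 0.28, edgeR adjusted p = 0.00261). The remaining reads may lie outside the deleted stretch, which these gene-level counts do not resolve. The level of *set-26* was 20.3 and 26.6 CPM in control against 26.1 and 21.3 CPM in the mutant, so the groups overlapped. Its near-identical paralog *set-9* had at most 3.38 CPM, and *hda-1*, a class I histone deacetylase, was at 43.9 and 42.7 CPM against 36.1 and 26.5 CPM (log2 fold change -0.46, SE 0.22, edgeR adjusted p = 0.254).

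Another SET-domain gene, *set-30*, was lowered more than any other member of the H3K4 methylation list. It stood at 99.0 and 114 CPM in control and at 15.9 and 14.5 CPM in *glp-1(-);hcf-1(-)*, a log2 fold change of -2.81 (SE 0.21, edgeR adjusted p = 0.000639). Of the 20 tested members of that list, *set-30* and *hcf-1* were the 2 lower ones and none was higher, while the 17 tested genes of HDA-1 partner complexes held no called gene. The histone variant H3.3 gene *his-72* fell from 468 and 648 CPM to 245 and 245 CPM (log2 fold change -1.19, SE 0.22, edgeR adjusted p = 0.0184). The histone deacetylase gene *hda-5* rose from 32.8 and 24.3 CPM to 53.8 and 56.2 CPM (0.94, SE 0.22, edgeR adjusted p = 0.0396). The calls of *hcf-1* and *set-30* held whichever of the 4 libraries was left out, and those of *his-72* and *hda-5* were lost in at least 1 such fit, with adjusted p values up to 0.199.

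Across all genes, 449 of 13608 tested genes were upregulated (3.30%) and 341 were downregulated (2.51%) in *glp-1(-);hcf-1(-)* at day 12, 5.81% in all. The median log2 fold change was 1.84 among the upregulated genes and -1.44 among the downregulated genes, with 408 and 288 of them beyond 1 in size, against 0.00 over all tested genes. Protein-coding genes made up 426 of the 449 and 307 of the 341. The counts rested on the mutant libraries in particular: without replicate 1 of the mutant 85 genes were called higher and 15 lower, and without replicate 2 there were 81 and 19. Without control replicate 1 the counts were 875 and 780, and without control replicate 2 they were 261 and 206.

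**Figure D1:**
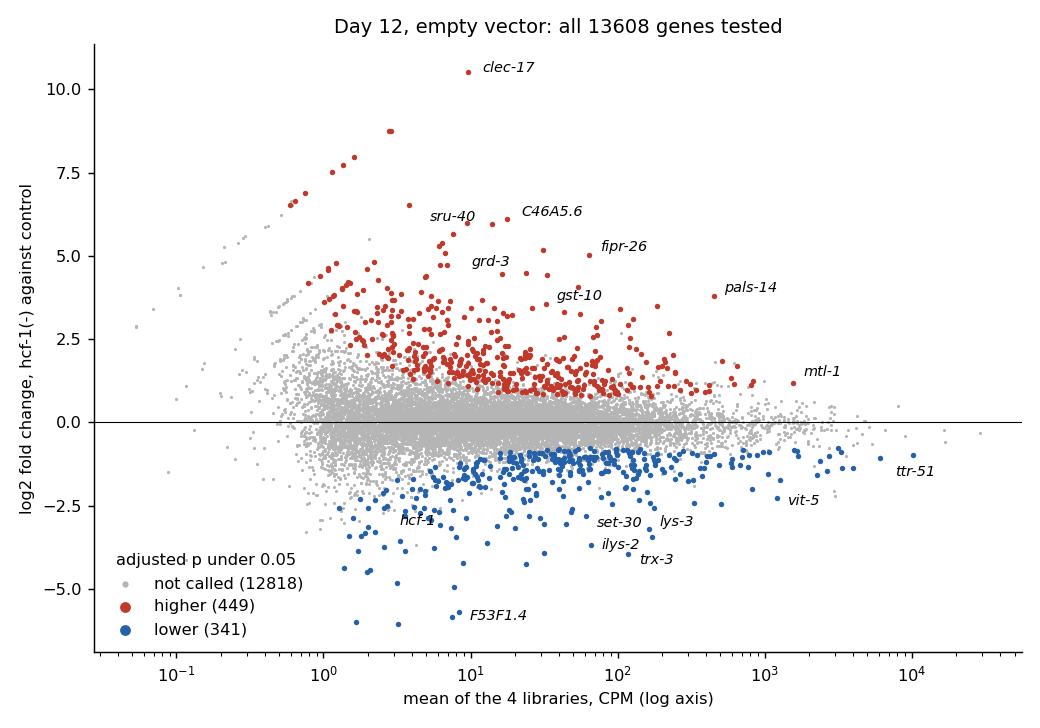
Log2 fold change of *glp-1(-);hcf-1(-)* against *glp-1(-)* at day 12 on EV (y axis) against the mean CPM of each tested gene over the 4 libraries (x axis, log scale), 1 point per gene, with the 449 genes called higher and the 341 called lower in colour. C46A5.6, at 6.10, and *sru-40*, at 5.94, stand high and *ilys-2*, at -3.68, low, while *clec-17* and most of the points above C46A5.6 have no control read, so that their fitted heights depend on the prior count.

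The genes furthest up went from almost no reads to a clear signal. The C-type lectin gene *clec-17* had no read in either control library and 338 and 153 reads in the mutant, at least 43.6-fold higher with a floor of 3 reads per library (edgeR adjusted p = 0.000639). C46A5.6 had 0.608 and 0.342 CPM in control against 32.8 and 36.6 CPM (log2 fold change 6.10, SE 0.35, edgeR adjusted p = 0.000122). The chemoreceptor gene *sru-40* had 0.243 and 0.683 CPM against 21.7 and 32.9 CPM (5.94, SE 0.47, edgeR adjusted p = 0.000665). In each of these genes the groups stood far apart. The small GTPase gene *rab-11.2*, a relative of the recycling-endosome gene *rab-11.1*, went from 0.973 and 2.56 CPM to 69.4 and 51.3 CPM (5.16, SE 0.44, edgeR adjusted p = 0.000723). F14F8.8 had 1 and 3 reads in control and 182 and 111 reads in the mutant, a ratio of 41.6 with a 95% counting interval of 16.1 to 154.

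Several of the genes furthest down had control libraries that differed from each other. F53F1.4 was at 2.55 and 30.1 CPM in control and 0.065 and 0.639 CPM in the mutant (log2 fold change -5.70, SE 1.2, edgeR adjusted p = 0.0278). F13E9.9 was at 14.3 and 76.7 CPM against 1.95 and 2.88 CPM, and *nspe-7* at 30.2 and 88.8 CPM against 1.04 and 7.24 CPM. In these genes control replicate 2 held most of the signal, though the groups did not overlap, by the rule that chose them. *parg-2*, which encodes a poly(ADP-ribose) glycohydrolase, fell from 12.8 and 35.5 CPM to 2.02 and 1.81 CPM (-3.63, SE 0.48, edgeR adjusted p = 0.00497). WBGene00023401, a short pseudogene on chromosome X, fell from 141 and 491 CPM to 36.8 and 20.9 CPM. Of the 10 genes in this paragraph and the preceding one, *clec-17*, C46A5.6, *sru-40*, *rab-11.2* and F14F8.8 stayed called whichever library was left out, while each of the 5 lower ones lost its call in at least 1 fit, with adjusted p values up to 0.188.

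Some of the furthest-up genes lay beside *hcf-1* itself. Within 50 kb of *hcf-1*, 26 genes were tested, of which 4 were higher and *hcf-1* was lower, where 3.30% of all genes were higher and 2.51% lower. *dsb-3*, whose product is needed for meiotic double-strand breaks (7757510 to 7759627), had 1 and 3 reads in control, and 12 and 13 CPM in the mutant against 0.122 and 0.512 CPM, a ratio of 43.6 (95% counting interval 16.9 to 161). C46A5.6 (7760003 to 7763848) is the gene described above, C46A5.1 (7763931 to 7767112) rose from 1.82 and 1.54 CPM to 19.6 and 17 CPM (log2 fold change 3.43, SE 0.29, edgeR adjusted p = 0.000723), and C50F7.3 rose from 6 and 0 reads to 75 and 57. C46A5.1 and C50F7.3 were singled out after their values were seen, as were *lea-1*, *pals-22*, *pals-25* and *perm-2* below. *dsb-3*, C46A5.6 and C46A5.1 also differed from control in *glp-1(-);set-26(-)*. The differences were 5.28 (SE 0.48), 6.10 (SE 0.35) and 3.46 (SE 0.30) on the log2 scale, in that order. Both mutants were set against the same control libraries, which favours the same direction. The cause of the differences near *hcf-1* was not tested. *dsb-3* and C46A5.1 stayed called whichever library was left out, and C50F7.3 reached an adjusted p of 0.121.

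Gene families differed in how many of their members moved. Of 52 gene lists, 2 had no tested member, and the lists together held 220 of the 790 called genes. pals genes, glutathione S-transferases and cuticle collagens held called genes in the upward direction only, proteasome subunits in the downward direction only, and lysozymes and saposin-like proteins in both.

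**Figure D2:**
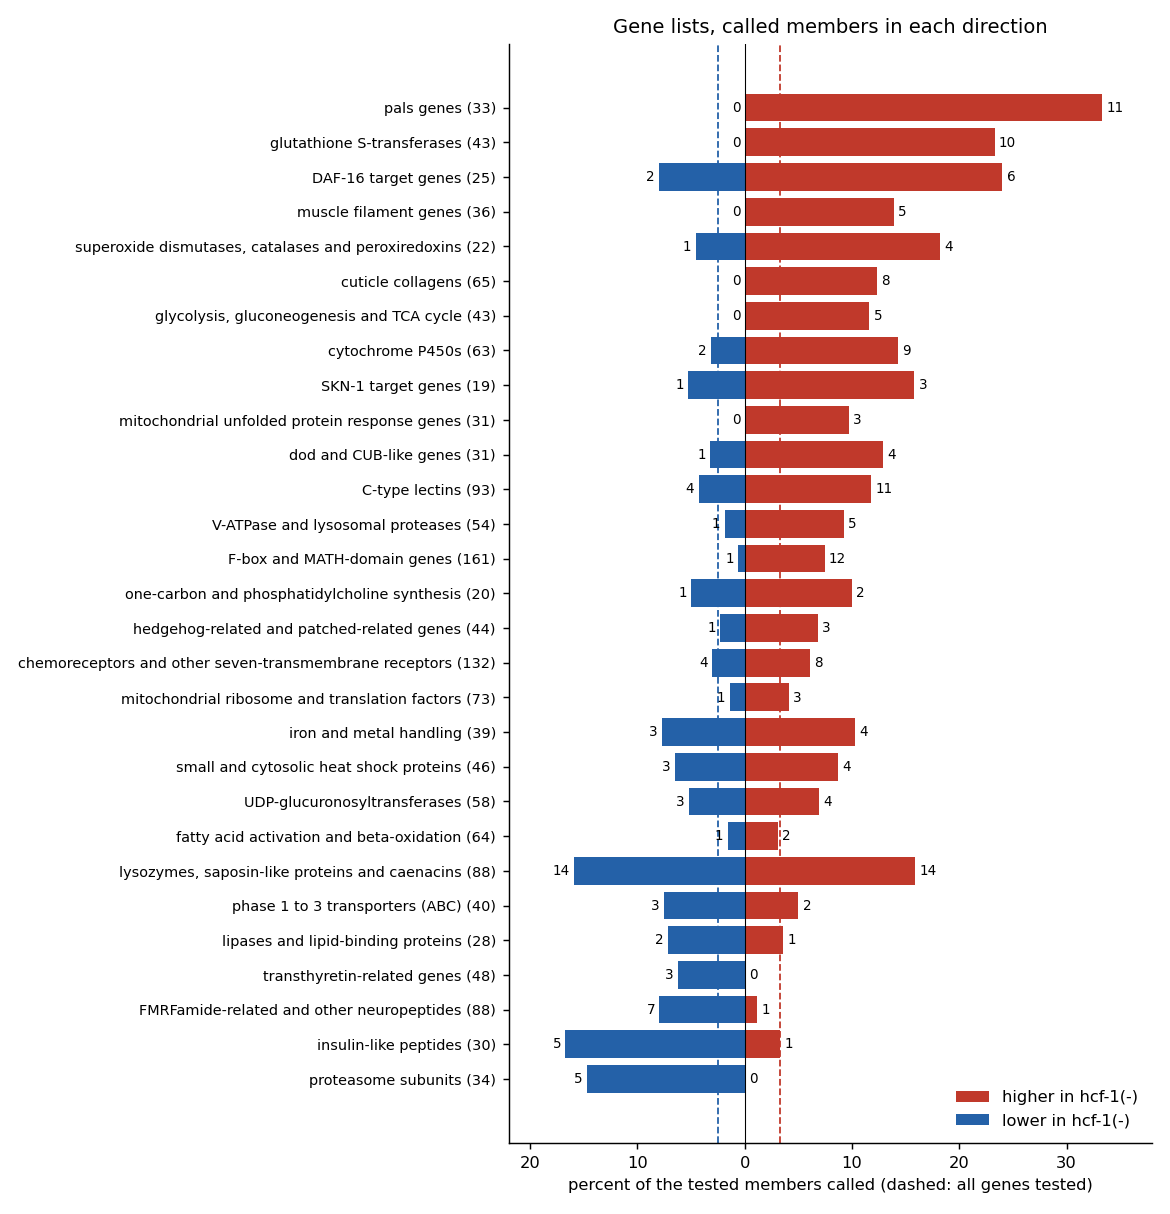
Percent of the tested members of each drawn gene list that were called higher or lower in *glp-1(-);hcf-1(-)* at day 12 on EV, with the counts at the bar ends and dashed lines at the percent over all tested genes. Lists with few tested members or few called genes were left out, so the bars do not show all lists. The longest bar belongs to the pals genes, with 11 of 33 higher and none lower.

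The pals family encodes proteins with an ALS2CR12-like signature, many of which are induced when microsporidia or viruses infect the gut, and 11 of its 33 tested members were higher (33.3%, against 3.30% of all genes) and none was lower. The median of the family was 0.86. *pals-14* was the most abundant of those named, at 51.1 and 69.2 CPM in control and 895 and 786 CPM in the mutant (log2 fold change 3.81, SE 0.25, edgeR adjusted p = 0.000297). *pals-29* went from 2.43 and 3.59 CPM to 61.4 and 65.4 CPM (4.42, SE 0.35, edgeR adjusted p = 0.000665). Neither gene had a mutant library near a control library. *pals-6* was 36.1 and 18.4 CPM against 257 and 156 CPM, *pals-28* was 2.67 and 3.25 CPM against 14.2 and 18.1 CPM, and *pals-15* was 0.973 and 0.683 CPM against 9.43 and 5.11 CPM. *pals-6*, *pals-14* and *pals-15* lie next to one another on chromosome I. The regulators of the response did not pass the test: *pals-22*, its repressor, had a log2 fold change of 0.09 (SE 0.27, edgeR adjusted p = 0.884), and *pals-25*, its activator, one of -0.59 (SE 0.32, edgeR adjusted p = 0.308). The number of pals genes called ranged from 6 to 10 when 1 library was left out, and *pals-29*, *pals-14*, *pals-6* and *pals-28* stayed called in each such fit. Members of this family are similar in sequence, so reads of close copies may be divided among them.

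C-type lectins, secreted sugar-binding proteins many of which respond to bacteria, moved both ways. Of 93 tested members 11 were higher (11.8%, against 3.30% of all genes) and 4 lower (4.3%, against 2.51%). *clec-174* had 1 and 3 reads in control against 475 and 59 in the mutant, a ratio of 75.9 (95% counting interval 29.5 to 279), and the mutant libraries themselves stood far apart. *clec-264* was 103 and 139 CPM against 56.6 and 59.6 CPM (log2 fold change -1.05, SE 0.22), and *clec-97* was 13.3 and 12.1 CPM against 4.81 and 2.66 CPM (-1.73, SE 0.34). None of these 3 lectin genes stayed called in all fits with 1 library left out, where adjusted p values reached 0.176, and the number of lectins called higher ranged from 2 to 28 over those fits.

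Of 88 tested lysozymes, saposin-like proteins, caenacins and related peptides, 14 were higher and 14 lower, 15.9% each. Over all genes 3.30% were higher and 2.51% lower. *fipr-26*, of the fungus-induced peptide family, rose from 4.74 and 2.56 CPM to 108 and 139 CPM (log2 fold change 5.04, SE 0.48, edgeR adjusted p = 0.00129). The saposin-like gene *spp-12*, whose relatives form pores in bacterial membranes, rose from 44.7 and 14.7 CPM to 260 and 417 CPM (3.50, SE 0.61, edgeR adjusted p = 0.0149). *spp-20* had 3 and 3 reads in control and 90 and 64 in the mutant, a ratio of 14.6 (95% counting interval 6.55 to 40.4). These 3 genes were low in both control libraries and high in both mutant libraries. In the other direction, the invertebrate lysozyme gene *ilys-2* fell from 120 and 123 CPM to 9.30 and 9.59 CPM (-3.68, SE 0.21, edgeR adjusted p = 0.000122), and each pair of libraries nearly coincided. The lysozyme gene *lys-3* fell from 138 and 451 CPM to 25.4 and 38.2 CPM (-3.21, SE 0.49, edgeR adjusted p = 0.00846). *nlp-34*, which encodes an antimicrobial peptide of the epidermis, fell from 685 and 1013 CPM to 177 and 131 CPM (-2.46, SE 0.30, edgeR adjusted p = 0.00378).

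CUB-like and dod genes, many of them gut effectors first found downstream of DAF-16 or of infection, held 4 higher and 1 lower member of 31, with a median of 0.68. These were 12.9% and 3.23% of the list, against 3.30% and 2.51% of all genes. *dod-24* rose from 0.365 and 0.683 CPM to 21.1 and 5.65 CPM (log2 fold change 4.72, SE 0.82, edgeR adjusted p = 0.0149), and *irg-5* from 4.74 and 2.56 CPM to 17.8 and 8.73 CPM (1.84, SE 0.42, edgeR adjusted p = 0.0371). *dod-23* fell from 266 and 148 CPM to 88.7 and 51.9 CPM (-1.56, SE 0.34, edgeR adjusted p = 0.0309). In each of these genes the replicates of a genotype differed by over 1.5 times, yet the genotypes did not overlap. Of the 9 antimicrobial, dod and CUB-like genes named here, *fipr-26*, *spp-20* and *ilys-2* stayed called whichever library was left out, and the others reached adjusted p values up to 0.251.

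**Figure D3:**
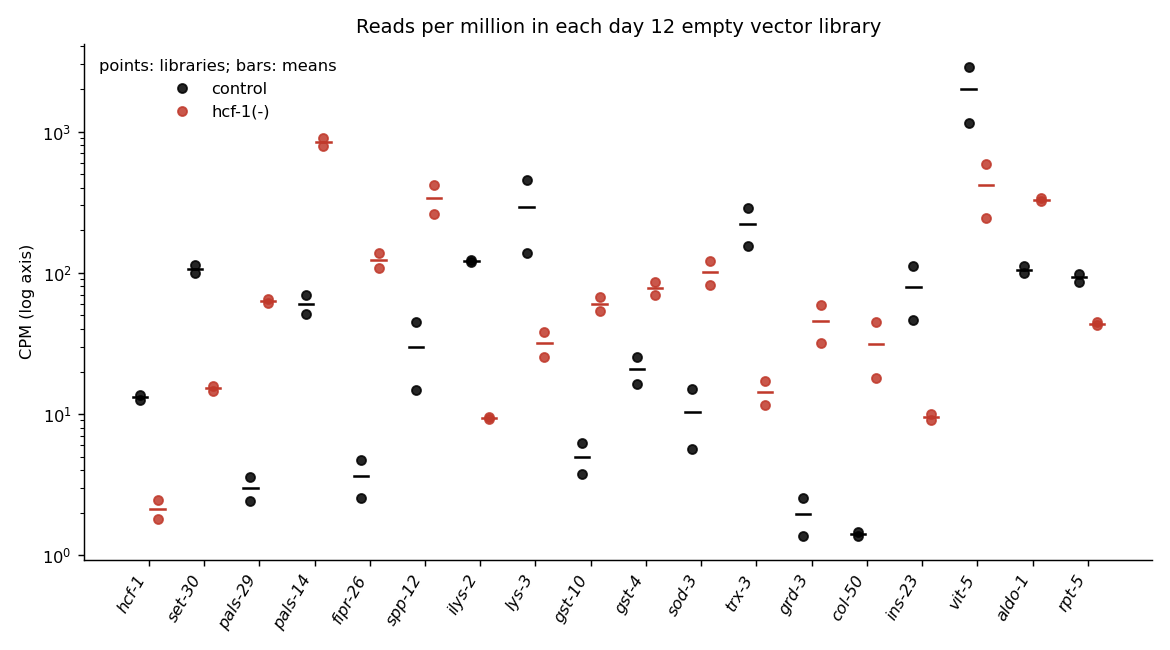
CPM of 18 genes in the 4 libraries of day 12 worms on EV (log axis), 1 point per library, with *glp-1(-)* and *glp-1(-);hcf-1(-)* in separate colours. The 2 mutant libraries of *pals-14* (895 and 786 CPM) lie above both control libraries, those of *ilys-2* (9.30 and 9.59 CPM) lie below them, and the replicates of *vit-5* spread within each genotype.

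Of 43 tested glutathione S-transferases, which couple glutathione to reactive compounds, 10 were higher (23.3%, against 3.30% of all genes). None was lower, and the median was 0.42. *gst-10* rose from 6.20 and 3.76 CPM to 53.3 and 67 CPM (log2 fold change 3.56, SE 0.30, edgeR adjusted p = 0.000723). *gst-4*, the usual reporter of SKN-1 activity, rose from 25.2 and 16.2 CPM to 69.6 and 85.7 CPM (1.90, SE 0.25, edgeR adjusted p = 0.00512). *gst-16* rose from 4.26 and 4.95 CPM to 24.1 and 27.1 CPM (2.48, SE 0.28, edgeR adjusted p = 0.00331). The genotypes did not overlap in any of these transferases. Of the 19 tested SKN-1 targets, 3 were higher (15.8%, against 3.30% of all genes) and 1 lower (5.26%, against 2.51%).

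Cytochrome P450s, the oxidases of the first detoxification step, held 9 higher and 2 lower members of 63, and UDP-glucuronosyltransferases, which add sugar groups in the second step, held 4 and 3 of 58. The shares were 14.3% and 3.17% in the first family and 6.9% and 5.17% in the second, against 3.30% and 2.51% of all genes. *cyp-33C1* had no read in control and 76 and 58 reads in the mutant, at least 12.7-fold higher (edgeR adjusted p = 0.00378). *cyp-33B1* rose from 0.851 and 0.512 CPM to 8.32 and 11.8 CPM (log2 fold change 3.81, SE 0.44, edgeR adjusted p = 0.00328), and *ugt-27* from 3.40 and 2.05 CPM to 22.6 and 24.3 CPM (3.06, SE 0.30, edgeR adjusted p = 0.00156). *ugt-9* went the other way, from 19.5 and 58.8 CPM to 7.15 and 7.56 CPM (-2.40, SE 0.45, edgeR adjusted p = 0.0189), as did the efflux pump gene *pgp-1*, from 33.2 and 52.1 CPM to 13.2 and 9.69 CPM (-1.88, SE 0.33, edgeR adjusted p = 0.0149). Of the 8 detoxification genes named, the 6 higher ones stayed called whichever library was left out, and *ugt-9* and *pgp-1* reached adjusted p values up to 0.136. The number of transferases of the glutathione family called higher ranged from 5 to 12 over those fits.

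Antioxidant and metal-binding genes included the largest opposite changes among stress genes. Superoxide dismutases, catalases, peroxiredoxins and thioredoxins held 4 higher and 1 lower member of 22 (18.2% and 4.55%, against 3.30% and 2.51% of all genes). *sod-3*, the mitochondrial manganese superoxide dismutase and a standard DAF-16 target, rose from 15 and 5.64 CPM to 81.4 and 121 CPM (log2 fold change 3.26, SE 0.45, edgeR adjusted p = 0.00558). *sod-1*, the main cytosolic enzyme, rose from 165 and 118 CPM to 300 and 299 CPM (1.08, SE 0.22, edgeR adjusted p = 0.0259), and *sod-5* from 0 and 4 reads to 53 and 63. *trx-3*, a thioredoxin of the intestine, fell from 155 and 288 CPM to 17 and 11.6 CPM (-3.94, SE 0.36, edgeR adjusted p = 0.000947). Both metallothionein genes were called, in opposite directions: *mtl-1* was 1249 and 649 CPM against 2117 and 2187 CPM (1.18, SE 0.29, edgeR adjusted p = 0.0477), and *mtl-2* was 584 and 549 CPM against 189 and 181 CPM (-1.61, SE 0.19, edgeR adjusted p = 0.00378). Neither pair of groups overlapped.

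Among 25 tested DAF-16 targets, 6 were higher (24%, against 3.30% of all genes) and 2 lower (8%, against 2.51%), with a median of 0.50. The higher members included *sod-3*, *mtl-1*, the small heat shock gene *hsp-12.6*, at 6.57 and 7.69 CPM against 20.2 and 35.3 CPM, and *lea-1*, a hydrophilic protein of desiccation tolerance, at 223 and 223 CPM against 414 and 407 CPM. The lower members were *mtl-2* and *ins-7*, and *ins-7* is a gene that DAF-16 is known to repress. The 14 tested genes of the insulin/IGF-1 signaling core and the 19 tested regulators of germline-loss longevity held no called gene. Over all genes 5.81% were called.

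Chaperones and the proteasome did not move together. Of 46 tested heat shock genes 4 were higher (8.7%, against 3.30% of all genes) and 3 lower (6.52%, against 2.51%). *hsp-70*, an inducible cytosolic chaperone, rose from 55.6 and 57.6 CPM to 158 and 190 CPM (log2 fold change 1.62, SE 0.20, edgeR adjusted p = 0.00429). The small heat shock gene *hsp-12.3* rose from 29.1 and 32.6 CPM to 82.1 and 158 CPM (1.96, SE 0.32, edgeR adjusted p = 0.0110), and *hsp-16.2*, which has close copies in the genome, from 110 and 145 CPM to 262 and 466 CPM (1.52, SE 0.30, edgeR adjusted p = 0.0243). *hsp-4*, the BiP chaperone of the endoplasmic reticulum, fell from 152 and 207 CPM to 75.9 and 64.4 CPM (-1.35, SE 0.23, edgeR adjusted p = 0.0144). It was 1 of 2 lower members among 19 genes of the endoplasmic reticulum stress response (10.5%, against 2.51% of all genes). Of these 19, 18 had a negative log2 fold change and the median was -0.49.

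None of the 34 tested proteasome subunits was higher, and 5 were lower (14.7%, against 2.51% of all genes). The log2 fold change was negative in 32, with a median of -0.53. *rpt-5*, an ATPase of the regulatory particle, was 86.7 and 98.7 CPM in control against 44.5 and 42.4 CPM (log2 fold change -1.09, SE 0.19, edgeR adjusted p = 0.0161). *pbs-7*, a beta subunit of the core particle, was 47.8 and 59.3 CPM against 24.8 and 24.8 CPM (-1.11, SE 0.21, edgeR adjusted p = 0.0200). The groups did not overlap in either subunit. The number of subunits called lower ranged from 0 to 10 with 1 library left out, while the median of the list stayed between -0.58 and -0.41. Of the 14 stress and proteostasis genes tested for this in the last 4 paragraphs, only *sod-3*, *trx-3* and *hsp-70* stayed called in each fit with 1 library left out, and the others reached adjusted p values up to 0.217.

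Of 30 tested insulin-like peptides, 5 were lower (16.7%, against 2.51% of all genes) and 1 was higher (3.33%, against 3.30%). The other 24 did not pass the test, and the median was -0.34. *ins-23* fell from 46 and 112 CPM to 10.1 and 9.05 CPM (log2 fold change -3.04, SE 0.39, edgeR adjusted p = 0.00452), and *ins-19* from 342 and 123 CPM to 61.2 and 31.1 CPM (-2.33, SE 0.47, edgeR adjusted p = 0.0243). *ins-7*, an agonist of the insulin receptor DAF-2, fell from 41.3 and 43.4 CPM to 12.8 and 18.4 CPM (-1.45, SE 0.29, edgeR adjusted p = 0.0230). In all 3 the control libraries lay above the mutant libraries. *ins-35* was the exception, with 2 and 2 reads in control and 254 and 126 reads in the mutant, a ratio of 54 (95% counting interval 20.9 to 199).

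Of 88 tested neuropeptide genes, 7 were lower (7.95%, against 2.51% of all genes), 1 was higher (1.14%, against 3.30%) and 80 did not pass the test. The median was -0.33, and 71 of the 88 had a negative log2 fold change. *nlp-59* fell from 40.2 and 19.5 CPM to 9.95 and 8.41 CPM (log2 fold change -1.70, SE 0.33, edgeR adjusted p = 0.0226), and *flp-8*, an FMRFamide-like peptide gene, from 30.5 and 24.6 CPM to 9.75 and 11.7 CPM (-1.37, SE 0.24, edgeR adjusted p = 0.0151). *nlp-39* rose from 26.4 and 14.3 CPM to 151 and 99.8 CPM (2.61, SE 0.33, edgeR adjusted p = 0.00419). The 19 tested pan-neuronal markers held no called gene, where 5.81% of all genes were called. Their summed level was 2956 and 3134 CPM in control against 2689 and 2500 CPM in the mutant. In whole worms, fewer cells of a type and less RNA per cell cannot be told apart, and the part of cell number in these values was not tested. *ins-35* and *nlp-39* stayed called whichever library was left out, and the other 5 signals named here reached adjusted p values up to 0.178.

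Among cuticle genes, called collagens were higher. Of 176 cuticle collagens only 65 had enough reads to be tested, and 8 of them were higher (12.3%, against 3.30% of all genes) and none lower. *col-50* rose from 1.46 and 1.37 CPM to 17.9 and 44.8 CPM (log2 fold change 4.44, SE 0.68, edgeR adjusted p = 0.00890) and *col-84* from 2.07 and 2.90 CPM to 22.2 and 30.8 CPM (3.43, SE 0.43, edgeR adjusted p = 0.00400). Groundhog-like genes, which encode hedgehog-related secreted proteins of the epidermis, were the 3 higher members of 44 hedgehog-related and patched-related genes, of which 1 was lower and the median was 0.10. The shares of that list were 6.82% and 2.27%, against 3.30% and 2.51% of all genes. *grd-3* rose from 2.55 and 1.37 CPM to 32 and 59.5 CPM (4.48, SE 0.41, edgeR adjusted p = 0.00109), *grd-5* from 6.32 and 2.22 CPM to 42.4 and 54.2 CPM (3.44, SE 0.38, edgeR adjusted p = 0.00305), and *grd-4* from no read to 48 and 31 reads, at least 7.32-fold. Each of these 5 genes was at most at 6.32 CPM in control and at 3.12 CPM or more in the mutant, with no overlap of the genotypes, and each stayed called whichever library was left out.

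In the other direction, the patched-related gene *ptr-6* fell from 27.8 and 33.1 CPM to 15.9 and 11.3 CPM (log2 fold change -1.15, SE 0.26, edgeR adjusted p = 0.0331), and *nas-37*, an astacin protease that digests old cuticle at the molt, from 27.7 and 43.4 CPM to 10.4 and 11.2 CPM (-1.72, SE 0.27, edgeR adjusted p = 0.00918). The cuticlin gene *cut-2* was 2.19 and 27.3 CPM in control against 0.325 and 0.107 CPM (-5.85, SE 1.18, edgeR adjusted p = 0.0243). As in F53F1.4, which lies near it on chromosome V, control replicate 2 held most of its reads. These 3 genes lost their calls in at least 1 fit with a library left out, with adjusted p values up to 0.236. The number of collagens called higher ranged from 2 to 14 over those fits, and hypodermal markers summed to 593 and 702 CPM in control against 548 and 482 CPM in the mutant, with none of the 6 tested called.

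The yolk protein gene *vit-5*, a vitellogenin made in the intestine, was 2844 and 1157 CPM in control and 590 and 242 CPM in the mutant (log2 fold change -2.26, SE 0.50, edgeR adjusted p = 0.0322). It was the single called gene of 6 vitellogenins (16.7% lower, against 2.51% of all genes), whose median was -1.24. The 6 most abundant lower genes were *ttr-51*, *ule-1*, C10G8.4, *ule-4*, *perm-4* and *ttr-2*. *ule-4* and *ule-1*, named for expression in the lumen of the uterus, fell from 4849 and 4787 CPM to 1867 and 1845 CPM (-1.38, SE 0.19, edgeR adjusted p = 0.00552) and from 8913 and 7676 CPM to 3719 and 4159 CPM (-1.07, SE 0.19, edgeR adjusted p = 0.0169). In both the replicates of a genotype lay close together. C10G8.4 was 6362 and 5123 CPM against 2136 and 2350 CPM, and the transthyretin-related genes *ttr-51* and *ttr-2* were 13621 and 13476 CPM against 6136 and 7693 CPM and 4200 and 3793 CPM against 2278 and 2420 CPM. *perm-2* and *perm-4*, which lie side by side on chromosome IV and encode proteins of the eggshell permeability barrier, were 3434 and 3832 CPM against 1719 and 1901 CPM (-1.0, SE 0.20, edgeR adjusted p = 0.0218) and 4554 and 3986 CPM against 2617 and 1996 CPM (-0.89, SE 0.22, edgeR adjusted p = 0.0454). The groups were apart in each of these 8 genes, but none stayed called in all 4 fits with a library left out, where adjusted p values reached 0.333. The summed level of 14 intestinal markers was 10123 and 5263 CPM in control against 4769 and 3244 CPM, but *vit-5* and *vit-2* are among these markers, and without them the other 12 summed to 2578 and 2582 CPM against 2613 and 2064 CPM. Of the 14 intestinal markers 2 were called higher (14.3%, against 3.30% of all genes) and 3 lower (21.4%, against 2.51%), *vit-5* among the lower ones. The summed level of 11 coelomocyte and excretory markers went from 470 and 404 CPM to 306 and 263 CPM. Of these markers 2 were lower (18.2%, against 2.51% of all genes), and their part in the result was not tested.

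Of 43 tested genes of glycolysis, gluconeogenesis and the citric acid cycle, 5 were higher (11.6%, against 3.30% of all genes). None was lower, and the median was 0.40. The aldolase gene *aldo-1* rose from 99.3 and 111 CPM to 336 and 321 CPM (log2 fold change 1.64, SE 0.20, edgeR adjusted p = 0.00378). The glyceraldehyde-3-phosphate dehydrogenase genes *gpd-3* and *gpd-2* rose from 572 and 449 CPM to 1048 and 1170 CPM and from 223 and 163 CPM to 414 and 441 CPM, though their close similarity may divide reads between them. *pck-1*, the phosphoenolpyruvate carboxykinase of gluconeogenesis, rose from 175 and 82.3 CPM to 366 and 353 CPM (1.48, SE 0.32, edgeR adjusted p = 0.0303). All 4 genes had mutant libraries above the control libraries.

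Of 36 muscle filament genes 5 were higher (13.9%, against 3.30% of all genes) and none lower, with a median of 0.11. The myosin heavy chain gene *unc-54* rose from 120 and 89.7 CPM to 225 and 212 CPM (log2 fold change 1.06, SE 0.22, edgeR adjusted p = 0.0264) and the troponin T gene *mup-2* from 116 and 120 CPM to 235 and 268 CPM (1.09, SE 0.22, edgeR adjusted p = 0.0231). Body wall muscle markers as a whole summed to 4855 and 4442 CPM in control and to 6052 and 6185 CPM in the mutant. Of these markers 2 of 13 were higher (15.4%, against 3.30% of all genes) and none lower. Their part in the muscle result was not tested. Of 64 genes of fatty acid activation and beta-oxidation 2 were higher (3.12%) and 1 lower (1.56%), near the shares of 3.30% and 2.51% over all genes. *ech-9*, an enoyl-CoA hydratase, was 6.69 and 1.54 CPM against 25.4 and 16.6 CPM (2.29, SE 0.49, edgeR adjusted p = 0.0301). *lipl-8*, a lipase-like gene, went from 32 and 16 reads to 1 and 0 reads, a ratio of 84.5 with a 95% counting interval of 14.5 to 3405. Of the 8 genes of metabolism and muscle named, *aldo-1* stayed called whichever library was left out, and the others reached adjusted p values up to 0.171.

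Of 31 tested genes of the mitochondrial stress response, 3 were higher (9.68%, against 3.30% of all genes) and none lower, with a median of 0.27. *mff-2*, a homolog of the mitochondrial fission factor, rose from 21.2 and 19.6 CPM to 82.6 and 79.7 CPM (log2 fold change 1.99, SE 0.20, edgeR adjusted p = 0.00190). *drp-1*, the dynamin that divides mitochondria, rose from 25.2 and 23.9 CPM to 55.8 and 40.8 CPM (0.98, SE 0.22, edgeR adjusted p = 0.0366), and *gfm-1*, a mitochondrial elongation factor, from 12.3 and 12.0 CPM to 23.3 and 23.5 CPM (0.95, SE 0.23, edgeR adjusted p = 0.0436). The genotypes did not overlap in these 3 genes. The chaperone genes *hsp-6* and *hsp-60*, the usual reporters of the response, had log2 fold changes of 0.81 (SE 0.29, edgeR adjusted p = 0.135) and 0.40 (SE 0.41, edgeR adjusted p = 0.621). Import genes did not pass either, with 0.85 for *timm-23* (SE 0.24, edgeR adjusted p = 0.0683), 0.24 for *scpl-4* and 0.26 for *tin-9.1*, nor did the translation factors *tufm-1* (0.44), *tufm-2* (0.85) and *tsfm-1* (0.35).

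Of 50 nuclear genes of the respiratory chain 1 was higher (2.0%) and none lower. Of 73 genes of mitochondrial ribosomes and translation 3 were higher (4.11%) and 1 lower (1.37%). These shares lay near or below those over all genes, 3.30% higher and 2.51% lower. None of 17 tested genes of mitochondrial DNA was called. Together these 17 took 2.39% and 1.58% of reads in control and 2.96% and 2.90% in the mutant. *mff-2* lies directly beside *wdr-12*, a ribosome biogenesis gene, and *cir-1*, a corepressor homolog, on the same strand of chromosome I. *wdr-12* rose from 200 and 165 reads to 1828 and 1036 reads (log2 fold change 2.13, SE 0.21, edgeR adjusted p = 0.00147) and *cir-1* from 297 and 319 CPM to 901 and 1087 CPM (1.69, SE 0.20, edgeR adjusted p = 0.00378). All 3 neighbours thus rose by over 3 times with tight replicates, and all 3 stayed called whichever library was left out, while *drp-1* and *gfm-1* reached adjusted p values up to 0.229. *hrpa-2*, which encodes an RNA-binding protein, was another abundant gene that rose, from 343 and 329 CPM to 856 and 819 CPM (1.32, SE 0.20, edgeR adjusted p = 0.00879).

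The mutant was next compared directly with *glp-1(-);set-26(-)* worms of the same day and diet, in which the control libraries entered the estimate of the spread only. There 22 genes were higher in *glp-1(-);hcf-1(-)* (0.162%) and 92 were lower (0.676%), or 0.838% of all genes tested. Of the 449 genes above control, 18 were also above *glp-1(-);set-26(-)* and 12 were below it. Of the 341 genes below control, 14 were also below *glp-1(-);set-26(-)* and none was above it. The *glp-1(-);hcf-1(-)* libraries are shared by both contrasts, which favours the same direction in these overlaps. Fitted on the 4 compared libraries alone, the contrast called 72 genes higher and 231 lower, and with 1 of those 4 libraries left out of the fit of all groups it called 0 to 3 higher and 0 to 26 lower.

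*set-30* was among the genes that set the mutants apart, at 92.3 and 97.3 CPM in *glp-1(-);set-26(-)* against 15.9 and 14.5 CPM in *glp-1(-);hcf-1(-)* (log2 fold change -2.64, SE 0.21, edgeR adjusted p = 0.00197). *hcf-1* itself was at 18.6 and 19.2 CPM in the *set-26* mutant (-3.16, SE 0.28, edgeR adjusted p = 0.00197). *col-84* was at 0.213 and 1.06 CPM in *glp-1(-);set-26(-)* against 22.2 and 30.8 CPM (5.34, SE 0.49, edgeR adjusted p = 0.00197). Of the other genes highest in this contrast, ZK688.4 differed by 4.70 (SE 0.52), B0511.11 by 3.90 (SE 0.33), *ptp-5.3*, a tyrosine phosphatase gene, by 3.26 (SE 0.50), and *clec-174* by 5.61 (SE 0.99). In each of them both *glp-1(-);hcf-1(-)* libraries were the higher ones. *gst-10* was also higher in *glp-1(-);hcf-1(-)*, by 1.38 (SE 0.26, edgeR adjusted p = 0.0486), and so were *gst-16*, by 1.92 (SE 0.27, edgeR adjusted p = 0.0134), and *mtl-1*, by 1.67 (SE 0.30, edgeR adjusted p = 0.0378).

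The lower genes of this contrast included the pals genes that were high against control. *pals-14* had 3341 and 4226 CPM in *glp-1(-);set-26(-)* against 895 and 786 CPM (log2 fold change -2.17, SE 0.24, edgeR adjusted p = 0.00446), *pals-10* had 113 and 192 CPM against 5.92 and 9.37 CPM (-4.34, SE 0.39, edgeR adjusted p = 0.00197), and *pals-28* differed by -1.59 (SE 0.27, edgeR adjusted p = 0.0289). F26F2.3 had 464 and 1167 reads in *glp-1(-);set-26(-)* against 24 and 21, and its neighbour F26F2.4 had 62 and 201 reads against 0 and 2. Both genes were near or at the floor in control as well, where F26F2.3 had at most 1.82 CPM. CD4.19 and Y57G11C.48 completed the lowest genes, with differences of -4.59 (SE 0.78) and -4.37 (SE 0.43). *ins-7* was at 121 and 74.8 CPM in *glp-1(-);set-26(-)* against 12.8 and 18.4 CPM (log2 fold change -2.66, SE 0.29, edgeR adjusted p = 0.00446), and *hsp-4* had a difference of -1.40 (SE 0.23, edgeR adjusted p = 0.0270).

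Most genes called at day 12 were not called at day 1. Of the 449 upregulated genes, 170 were also higher in *glp-1(-);hcf-1(-)* at day 1 on EV, where 9.50% of all genes were called higher and 18.2% either way, 44 were lower at day 1, and 235 were not called. At day 3, where 2.42% of all genes were called higher, the number called the same way was 118. Of the 341 downregulated genes, 94 were lower at day 1, where 8.65% of all genes were, 19 were higher, and 228 were not called, and 51 were lower at day 3, where 2.18% of all genes were and 4.61% were called either way. The change of the effect itself was tested as an interaction of genotype and day over 12 libraries, in which 493 of 14195 genes had a higher effect at day 12 than at day 1 (3.47%) and 441 a lower one (3.11%), 6.58% in all. It held for 130 of the 449 genes, 112 of which moved further up, and for 84 of the 341, 79 of which moved further down. The day 12 libraries that chose these genes also enter the interaction, which favours these directions, so the split is not a separate result. By the paper's methods the days sampled the same populations, while the interaction test took their libraries as independent. The number of genes with a higher effect was 907 without control replicate 1 of day 12 and 267 without control replicate 2, and it was 222 and 242 without replicates 1 and 2 of the mutant. The numbers with a lower effect were 608, 224, 165 and 182 in the same order.

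**Figure D4:**
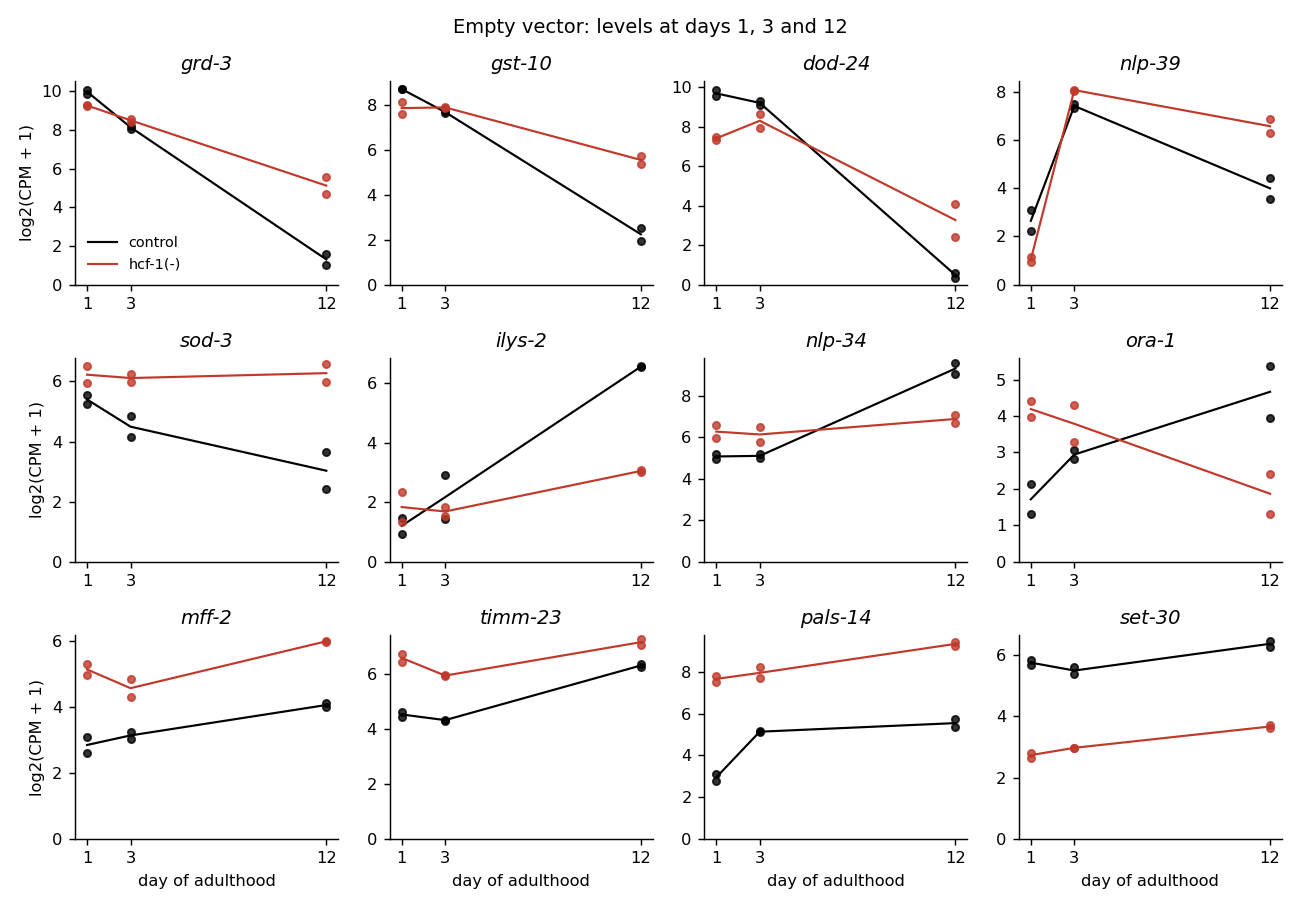
Level of 12 genes at days 1, 3 and 12 of adulthood on EV, as log2(CPM + 1) on the scale of the fit over 3 days, with 1 point per library, lines through the means of 2 libraries, and *glp-1(-)* and *glp-1(-);hcf-1(-)* in separate colours. In *gst-10* the control falls from 427 and 416 CPM at day 1 to 4.81 and 2.86 CPM at day 12 while the mutant ends at 40.9 and 52.2 CPM, and in *set-30* the mutant is the lower one on each day.

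Some genes were apart by genotype from day 1 on. *set-30* was at 50.3 and 55.9 CPM in control and 5.29 and 6.03 CPM in the mutant at day 1, on the scale of the fit over 3 days, and its effect did not pass the test of a change (0.42, SE 0.28, edgeR adjusted p = 0.414). C46A5.6 likewise was at 0.547 and 0.889 CPM against 56.3 and 62.8 CPM at day 1, with a change of -0.25 (SE 0.73, edgeR adjusted p = 0.892). In both genes the genotypes did not overlap on any of the 3 days.

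Another kind was abundant in young control worms, almost gone in old ones and better kept in the mutant. *gst-10* in control went from 427 and 416 CPM at day 1 to 213 and 199 CPM at day 3 and 4.81 and 2.86 CPM at day 12, and in the mutant from 196 and 278 CPM through 235 and 242 CPM to 40.9 and 52.2 CPM, so that its effect changed by 4.40 (SE 0.38, edgeR adjusted p = 0.000229). *grd-3* went from 1079 and 937 CPM to 1.98 and 1.04 CPM in control and from 613 and 616 CPM to 24.5 and 46.4 CPM in the mutant (5.21, SE 0.47, edgeR adjusted p = 0.000229). In both genes the mutant was below control at day 1 and above it at day 12. *dod-24* went from 742 and 914 CPM to 0.283 and 0.520 CPM in control and from 159 and 179 CPM to 16.2 and 4.40 CPM in the mutant (7.01, SE 0.81, edgeR adjusted p = 0.000455). The order of the genotypes in *dod-24* was thus opposite at the ends of the series. C32H11.4 and K08D8.5, which lie within 50 kb of *dod-24* on chromosome IV, had changes of 10.24 (SE 0.94) and 7.38 (SE 0.93), and C17H12.6 one of 8.24 (SE 0.58).

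Other genes rose with age in control and moved less, or the other way, in the mutant. *ilys-2* went from 0.911 and 1.78 CPM at day 1 to 93.0 and 93.7 CPM at day 12 in control and from 4.1 and 1.51 CPM to 7.12 and 7.47 CPM in the mutant (change of the effect -4.70, SE 0.78, edgeR adjusted p = 0.00458). *nlp-34* went from 30.1 and 35.8 CPM to 531 and 772 CPM in control and from 96.8 and 60.7 CPM to 136 and 102 CPM in the mutant (-3.71, SE 0.45, edgeR adjusted p = 0.000609). *ora-1* fell with age in the mutant, from 20.2 and 14.7 CPM to 4.33 and 1.49 CPM, and had a change of -6.02 (SE 0.87, edgeR adjusted p = 0.00216), and *cut-2* and R02E4.3, which also fell with age in the mutant, had the lowest ones, of -11.76 (SE 1.60) and -10.34 (SE 0.96). In *ilys-2* and *nlp-34* the mutant was higher or level with control at day 1 and far below it at day 12.

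For several mitochondrial genes the effect was larger at day 1 than at day 12. *timm-23* was at 21 and 23.5 CPM in control and 86.0 and 107 CPM in the mutant at day 1 (log2 fold change 2.12, SE 0.20) and at 75.3 and 82.8 CPM against 133 and 154 CPM at day 12, a change of -1.26 (SE 0.27, edgeR adjusted p = 0.0191). The change was -1.93 (SE 0.32) for *scpl-4*, -1.45 (SE 0.31) for *gfm-1*, -1.49 (SE 0.33) for *tufm-1* and -1.57 (SE 0.34) for *tsfm-1*, with the mutant the higher genotype at day 1 in each. For *timm-23* the level in control was over 3 times as high at day 12 as at day 1. The changes of *hsp-6* (-0.83, SE 0.43, edgeR adjusted p = 0.277), *hsp-60* (-1.10, SE 0.61), *tin-9.1* (-1.04, SE 0.32) and *tufm-2* (-0.38, SE 0.50) did not pass the test.

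Some of the largest changes rested on few reads or on 1 library at day 1. T13F3.6 had a fitted change of 16.71 (SE 4.05), but its day 1 control libraries had 7796 and 0 reads. *nex-4* had a fitted change of 8.16 (SE 2.14) with no read in the mutant at day 1. *col-109*, *dpy-5* and Y60C6A.3 had fitted changes of -9.32 (SE 0.98), -8.50 (SE 0.82) and -8.91 (SE 1.41), with at most 0.911 CPM in control at day 1. Where a group has no read, as in *nex-4* and Y60C6A.3, the fitted value depends on the prior count that stands in for zeros.

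The difference was last set against the same genotypes at day 12 on *hda-1* RNAi, in 4 libraries of which none is part of the EV comparison. By the paper's methods each population was split between the diets at day 1, so the diets share their starting populations. *hda-1* itself had 12582 and 11710 reads in the control libraries labelled *hda-1* RNAi against 361 and 250 on EV, so its count there did not check the knockdown. On *hda-1* RNAi 304 genes were higher (2.10%) and 265 lower (1.83%) of 14488, 3.93% in all. Of the 449 genes higher on EV, 437 had the same sign and 197 (43.9%) were called the same way. Of the 341 lower genes, 333 had the same sign and 138 (40.5%) were called the same way, and none of the 790 was called the other way. No gene passed the test of a difference between the diets (0%), with 518 of 14488 genes at an unadjusted p under 0.05. That test took the libraries of the 2 diets as independent. DESeq2 called 6 genes higher and 12 lower in that test, and edgeR with a block for the replicate number within each genotype called 44 and 55.

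**Figure D5:**
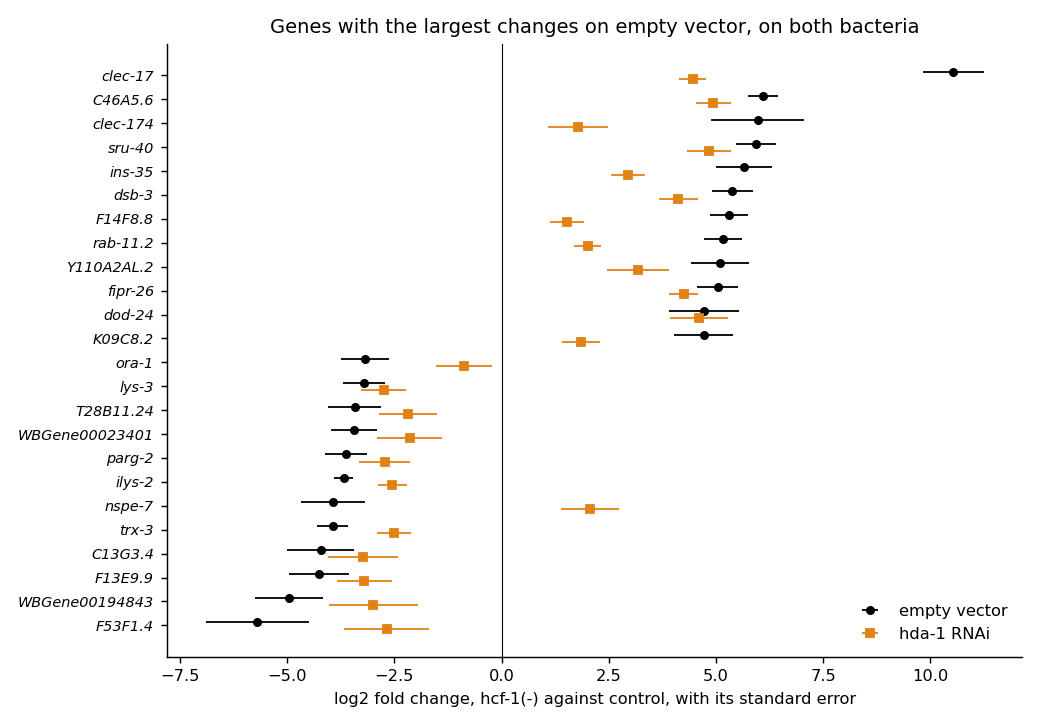
Log2 fold change of *glp-1(-);hcf-1(-)* against *glp-1(-)* at day 12 on EV and on *hda-1* RNAi, with bars of 1 SE. Shown are the 12 genes highest and the 12 lowest on EV among called genes with a mean of at least 50 reads and groups that did not overlap. The genes were chosen by their size on EV, and *nspe-7* lies on opposite sides of 0, at -3.93 on EV and 2.07 on *hda-1* RNAi.

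Several leading genes were called in the same direction on *hda-1* RNAi. *pals-14* had a log2 fold change of 3.08 (SE 0.22, edgeR adjusted p = 0.000680) there, *fipr-26* one of 4.24 (SE 0.34), *gst-10* one of 2.92 (SE 0.25) and *sod-3* one of 2.31 (SE 0.42, edgeR adjusted p = 0.0215). *ilys-2* was at -2.55 (SE 0.34, edgeR adjusted p = 0.00826), *trx-3* at -2.51 (SE 0.39), *ins-23* at -3.0 (SE 0.46) and *set-30* at -2.36 (SE 0.20, edgeR adjusted p = 0.000753). Each of these 8 was called on both diets. *nlp-34*, with -0.39 (SE 0.28, edgeR adjusted p = 0.450), and *spp-12*, with 0.55 (SE 0.47, edgeR adjusted p = 0.535), were called on EV and not on *hda-1* RNAi, though the difference between the diets did not pass the test for either (adjusted p = 0.460 and 0.638). *nspe-7* turned from -3.93 (SE 0.74) on EV to 2.07 (SE 0.68, edgeR adjusted p = 0.119) on *hda-1* RNAi, a difference that did not pass the test (6.0, SE 1.02, edgeR adjusted p = 0.373).

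The difference was also set against the change of genes with age. The age direction was taken from control worms on *hda-1* RNAi at days 3 and 12, libraries that are not part of the EV comparison, in which 18.8% of 12904 genes rose and 20.8% fell, 39.6% in all. These worms came from the same starting populations as control on EV, and deviations of the day 12 control replicates correlated at 0.340 between the diets. Sharing of this kind favours opposite directions of the age change and of the mutant difference in the counts below. At day 12 these worms had also been on *hda-1* RNAi for longer, so age and length of RNAi cannot be told apart here. Rising or falling with age refers below to this contrast. Of the 2302 genes that rose with age and were tested on EV, 189 were lower in *glp-1(-);hcf-1(-)* (8.21%, against 2.51% of all genes) and 72 were higher (3.13%, against 3.30%), and their median log2 fold change was -0.29. Of the 2601 genes that fell with age, 181 were higher in the mutant (6.96%) and 47 lower (1.81%), with a median of 0.24. Read the other way, 181 of the 449 upregulated genes (40.3%) fell with age and 189 of the 341 downregulated genes (55.4%) rose with it, against 19.1% and 16.9% of all tested genes. *ilys-2*, with 7.12 on the log2 scale, *lys-3*, with 4.70, *ins-23*, with 5.59, and *trx-3*, with 3.20, were among the lower genes that rose with age. *gst-10*, with -3.97, *fipr-26*, with -3.26, and *grd-3*, with -3.74, were among the higher genes that fell. *pals-29* went against this order, since it rose with age by 4.62 and was higher in the mutant. These counts carry no test, since genes are not independent replicates.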

How the data were processed

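Libraries were made with a 3' mRNA-seq kit, in which reads come from the end of a transcript. The authors trimmed reads with Trim Galore 0.6.5, aligned unique reads with STAR 2.7.9a to WBcel235 (ce11), and deposited raw stranded counts per gene. Of 46934 gene IDs, 46924 were matched to Ensembl annotation and 44113 to a symbol. Genes with more than 10 reads in at least 2 libraries of a fit were tested in edgeR 4.0.16 (R 4.3.3) with the quasi-likelihood F test, TMM factors and Benjamini-Hochberg adjustment, called at 0.05 and checked on simulated counts. The day 12 fit held 6 libraries, with *glp-1(-);set-26(-)* included, and the other fits 12 (days), 8 (diets) and 4 (age). SE is the size of the log2 fold change over the root of F. A gene at 0 in a group was bounded by 3 reads per library, and count ratios have exact 95% intervals, which cover counting error only.

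Members, 52 gene lists and 9 marker lists were chosen with earlier results of these data known. Genes were named if they belong to the targeted or mitochondrial genes under study, were among the 12 furthest or 6 most abundant called genes in a direction, the 5 furthest of a list, or the 5 furthest of the contrasts with *set-26(-)* and between days, were markers, or were singled out after their values were seen. The 12 furthest genes and the 5 furthest against *set-26(-)* were taken from genes with a mean of at least 50 reads and groups that did not overlap. No set test was run. DESeq2 1.42.0, other scalings, no filter, other fits, thinning, a replicate block and leaving out each library were tried.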

Additional observations from a re-analysis of the deposited data

Results flagged for a closer look

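The difference between *glp-1(-);hcf-1(-)* and *glp-1(-)* changed between day 1 and day 12 on EV, by the edgeR interaction test, in 493 genes upward and 441 downward. Among the genes named in the report, the change on the log2 scale is given here for each that passed the test, as the effect at day 12 minus that at day 1.

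In chromatin genes it was 1.5 for *hda-5* and -1.58 for *his-72*. In defence and antimicrobial genes it was -6.33 for *pals-28*, -4.70 for *ilys-2*, -3.71 for *nlp-34*, 7.01 for *dod-24*, 4.19 for *irg-5*, 2.41 for *dod-23*, 9.42 for *clec-3*, 7.38 for K08D8.5 and 10.24 for C32H11.4. In detoxification it was 4.40 for *gst-10*, 2.48 for *ugt-27*, -5.23 for *ugt-9* and -3.99 for *pgp-1*.

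In stress genes it was 2.41 for *sod-3*, 3.18 for *sod-1*, 1.98 for *hsp-12.3* and 1.13 for *lea-1*. At day 1 *sod-1* stood at 357 and 55.5 CPM in the 2 control libraries, so that its change rests on replicate 1. In signals it was -2.63 for *ins-23* and 5.0 for *nlp-39*.

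In cuticle and hedgehog-related genes it was 8.58 for *grd-4*, 5.21 for *grd-3*, 4.12 for *grd-5*, -1.64 for *ptr-6*, -11.76 for *cut-2*, -9.32 for *col-109* and -8.50 for *dpy-5*. In yolk and metabolism it was 2.81 for *vit-5*, 1.97 for *pck-1* and 3.79 for *ech-9*.

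In mitochondrial genes and the neighbour of *mff-2* it was -1.26 for *timm-23*, -1.93 for *scpl-4*, -1.45 for *gfm-1*, -1.49 for *tufm-1*, -1.57 for *tsfm-1* and -1.36 for *wdr-12*. In the remaining genes it was -4.80 for F53F1.4, -4.39 for WBGene00023401, -5.96 for *nspe-7*, 8.24 for C17H12.6, -10.34 for R02E4.3, -8.91 for Y60C6A.3, 8.16 for *nex-4*, 16.71 for T13F3.6 and -6.02 for *ora-1*. Where a group had no reads at day 1 or day 12 (*pals-28*, *clec-3*, *grd-4*, *nex-4*, T13F3.6 and Y60C6A.3), the fitted value depends on the prior count.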

How the results depend on the processing

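No called gene named for the day 12 comparison on EV changed sign under any alternative. With DESeq2's size factors, the replicate block, thinning to the smallest library or all 12 day 12 libraries in the fit the counts stayed within 1.5 times of 449 higher and 341 lower, except that the lower count with DESeq2's test was 548. Testing without a filter gave 1037 higher and 782 lower, and fitting only the 4 compared libraries 258 and 166. Leaving out 1 library gave 81 to 875 higher and 15 to 780 lower. The replicate number gave a correlation of 0.103 between control and mutant deviations over 2 pairs, and the numbers are shared by different strains. Between EV and *hda-1* RNAi at day 12 the correlation was 0.340 in control and 0.298 in the mutant. With the replicate block 577 genes were higher and 497 lower, and 765 of the 790 calls remained. Of 102 called genes named in the text, 37 stayed called whichever of the 4 libraries was left out. Against *glp-1(-);set-26(-)* the counts of 22 higher and 92 lower became 59 and 197 with DESeq2, 148 and 384 without a filter, and 72 and 231 with only the 4 compared libraries. They ranged from 0 to 3 higher and from 0 to 26 lower with 1 library left out, and were 32 and 131 with the replicate block. For the change from day 1 the counts of 493 higher and 441 lower became 817 higher with DESeq2, 1161 and 710 without a filter, and 219 and 226 with only the 8 libraries of days 1 and 12. They ranged from 222 to 907 higher and from 165 to 608 lower with 1 library left out, were 524 and 430 with the replicate block, and 638 and 464 with the block within genotype, which was chosen after seeing the data. For the difference between diets the counts of 0 and 0 became 6 and 12 with DESeq2, 46 and 51 without a filter, 5 and 2 with the replicate block, and 44 and 55 with the block within genotype. The cause of these differences was not tested. The shallowest library held 6045498 reads, and small changes of genes with few reads were not detectable at this depth. Larger changes could be missed too. In simulated counts, 90% of the genes changed by 2 on the log2 scale were recovered at day 12. For the change from day 1 the share was 49%, and 86% for a change of 3. The difference between diets was not simulated. A gene that did not pass a test may thus still differ.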
